A study of Homo sapiens with 12 samples.

Results

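The tumour suppressor p53 is a transcription factor that answers DNA damage and other stress by switching on genes that halt the cell cycle, repair DNA, alter metabolism or trigger apoptosis. Its own activity is held down by target genes that act back on it, of which the ubiquitin ligase MDM2 is the best known. The arrest arm runs mainly through CDKN1A (p21), which inhibits cyclin-dependent kinases and thereby keeps cell cycle genes repressed by the DREAM complex. HepG2 is a human liver cancer line. HDAC1 is a histone deacetylase, and CDKN1A is a textbook target of class I deacetylases, which are held at its promoter through the GC-box factor Sp1. Protein kinase A (PKA) phosphorylates CREB, the factor that binds cAMP response elements.

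A set of 29 genes, named by symbol as p53 targets and arrest genes, was followed here. They were found by gene identifier, 29 of 29, among the 62475 identifiers counted, and all 29 passed the filter on low counts and are among the 14435 genes tested. By role they comprise 10 arrest genes, 4 genes that feed back on p53 or protect cells, 8 apoptosis genes, 4 genes of DNA repair and nucleotide supply, and 3 genes of metabolism or secretion. CDKN1B (p27), a second inhibitor of cyclin-dependent kinases, belongs to the arrest genes without being a classical p53 target. RNA sequencing covered 12 HepG2 libraries, with 3 biological replicates in each of 4 groups: cells with the HDAC1_S434A mutant (S434A) and the PKA inhibitor H89, S434A cells without H89, cells with wild-type HDAC1 (WT) and H89, and WT cells without H89. The design crosses the HDAC1 genotype with inhibition of PKA, so it asks what the mutation does, what H89 does, and whether the effect of H89 differs between genotypes. How the mutant cells were made, whether they are 1 clone, whether they still carry wild-type HDAC1, and the dose and duration of H89 are not stated in the sources used here.

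Total counts ran from 17562754 to 37187794 per library. Levels are counts per 1000000 counts (CPM) scaled by TMM factors, and changes are log2 fold changes with their standard error (SE) from edgeR's quasi-likelihood test with Benjamini-Hochberg adjustment over all 14435 genes. A gene is said to rise or fall where its adjusted p is under 0.05, at any fold. A pair of groups, WT without H89 and S434A without H89, stood apart over the whole libraries. Mitochondrially encoded mRNA took 3.16 to 7.02% of counts in the other 9 libraries and 1.48 to 1.51% in WT without H89, and ribosomal protein mRNA took 6.73 to 10.6% in those 9 and 18.3 to 18.8% in WT without H89. In S434A without H89 the replicates were far apart, with a biological coefficient of variation of 0.351, against 0.0547 in S434A with H89, 0.0733 in WT with H89 and 0.0191 in WT without H89. Replicate 1 of S434A without H89 was the most distant library. Hepatocyte markers were above 1 CPM in all libraries, 8 of 8, and summed to 33310 to 35090 CPM in S434A with H89, 25360 to 45340 CPM in S434A without H89, 32380 to 36710 CPM in WT with H89 and 69490 to 70130 CPM in WT without H89. Markers of fibroblasts and of endothelium and blood each summed to at most 44.0 CPM, and 3 markers of other epithelial lines to at most 0.0943 CPM. The part of these differences in the results below was not tested.

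Promoter sequence of 4 of the genes is shown because these genes carry the contrasts described below: CDKN1A and MDM2 are the central arrest and feedback targets, TP53I3 had the smallest p among the genes that fell with H89 in WT cells, and XPC the smallest among those that rose. Each is the 250 bases before an annotated start, from RefSeq (GRCh38.p14), printed 5′ to 3′ on the strand of the gene. Capitals mark a GC box (GGGCGG), the short form of a cAMP response element (TGACG) or a match to the p53 consensus with at most 3 mismatches in 20 bases, each on either strand. The CDKN1A window lies at chr6:36678464-36678713 on the plus strand and holds 4 GC boxes, the MDM2 window at chr12:68808767-68809016 on the plus strand, the TP53I3 window at chr2:24084835-24085084 on the minus strand and the XPC window at chr3:14178602-14178851 on the minus strand.
CDKN1A: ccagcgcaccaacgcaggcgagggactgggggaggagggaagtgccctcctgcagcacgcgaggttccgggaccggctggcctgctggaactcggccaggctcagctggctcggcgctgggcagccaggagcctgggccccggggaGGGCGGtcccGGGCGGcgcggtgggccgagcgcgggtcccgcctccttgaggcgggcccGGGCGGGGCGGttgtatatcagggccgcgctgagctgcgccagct
MDM2: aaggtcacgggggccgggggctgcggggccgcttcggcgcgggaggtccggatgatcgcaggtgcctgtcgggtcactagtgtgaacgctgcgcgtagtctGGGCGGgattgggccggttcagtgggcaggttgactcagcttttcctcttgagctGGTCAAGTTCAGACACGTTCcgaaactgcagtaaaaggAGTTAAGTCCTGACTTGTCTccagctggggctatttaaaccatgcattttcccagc
TP53I3: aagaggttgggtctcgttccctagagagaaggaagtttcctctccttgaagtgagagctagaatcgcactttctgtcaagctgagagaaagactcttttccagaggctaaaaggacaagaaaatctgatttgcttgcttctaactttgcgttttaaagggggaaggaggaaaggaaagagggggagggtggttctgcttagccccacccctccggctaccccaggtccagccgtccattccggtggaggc
XPC: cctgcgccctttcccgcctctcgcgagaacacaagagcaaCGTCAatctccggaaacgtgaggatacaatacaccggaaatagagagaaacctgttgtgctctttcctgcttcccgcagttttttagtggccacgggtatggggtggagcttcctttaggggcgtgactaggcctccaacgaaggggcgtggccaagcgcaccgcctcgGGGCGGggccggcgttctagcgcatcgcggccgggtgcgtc

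The MDM2 window shown, before its start inside the gene, holds 2 matches to the p53 consensus and 1 GC box, the XPC window holds 1 GC box and 1 TGACG, and the TP53I3 window holds none of these letters. MDM2 has 4 windows in all. Those before its upstream start, at chr12:68807922-68808171 and chr12:68807927-68808176, hold 0 p53 matches. Another, at chr12:68808774-68809023, overlaps the one shown and holds the same 2 matches, so both count in the share of windows given below. The table of promoters had 33 windows of 300 bases for 22 of the 29 genes. GGGCGG was present in 84.8% of these windows, against 45.0% of all 35116 windows. TGACG was in 30.3% of them against 24.6% of all, and the full element TGACGTCA was in the PPM1D window alone, 3.03% against 1.85%. A p53 consensus match was in 30.3% against 5.2% of all windows and belonged to 9 genes, CDKN1B, SESN1, MDM2, FAS, AEN, XPC, DDB2, GDF15 and FDXR. The match of XPC lies after its start, in the 50 bases of the window that are not shown. The looser spaced core (CNNG, any 6 bases, CNNG) was in 93.9% against 74.0%, and CATG, the core letters of many half-sites, in 33.3% against 54.9%. GGGCGG and the p53 core letters can overlap each other, and such matches describe letters, not bound sites.

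With H89 in S434A cells 11 of the 29 genes rose and 12 fell, 37.9% and 41.4%, where 29.3% of all tested genes rose and 22.7% fell. Their median log2 fold change was -0.08, against 0.01 over all genes. With H89 in WT cells 9 rose and 12 fell, 31% and 41.4%, where 38.8% of all genes rose and 30.9% fell, with a median of -0.001 against 0.197. Without H89, S434A cells had 2 of the 29 genes higher and 13 lower than WT cells, 6.9% and 44.8%, where 29% of all genes were higher and 29.3% lower, with a median of -0.26 against -0.04. With H89 in both genotypes none of the 29 passed the test between S434A and WT, and neither did any other gene: 0% of genes were called in either direction. The effect of H89 was more positive in S434A than in WT cells for 7 genes and more negative for 3, 24.1% and 10.3%, where 24.0% of all genes were called in each direction. At the study's own threshold, which also asks for a fold change over 2, the counts were 7 higher and 0 lower for H89 in S434A cells, where 15.2% and 2.35% of all genes passed. They were 5 and 3 for H89 in WT cells, against 22.2% and 15.8% of all genes, 0 and 2 for S434A against WT without H89, against 11.6% and 11.3%, and 3 and 0 for the difference, against 11.7% and 12.4%. The comparison of S434A with WT without H89, the H89 effect in WT cells and the difference all contain the WT libraries without H89, and share their noise. As these are bulk libraries, a change in every cell and a change in some of the cells cannot be told apart.

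Every comparison, also that of H89 in WT cells, rests on the spread shared by all 12 libraries. In a fit of only the WT groups, GADD45A (-0.40, adjusted p = 4.54e-06), PLK3 (-0.32, adjusted p = 0.00114) and CCNG1 (-0.14, adjusted p = 0.0274) were also called lower with H89. FAS (0.57, adjusted p = 0.00111) was also called higher, where 41.9% of all genes rose and 40% fell. The calls of CDKN1A, ZMAT3, PPM1D, TNFRSF10B, RRM2B and GDF15 for H89 in WT cells held in that fit. In a fit of only the groups compared, 1 gene rose and 7 fell with H89 in S434A cells, the single rise being TIGAR (log2 fold change 1.33, adjusted p = 0.0377), where 8.49% of all genes rose and 11.4% fell. The falls that remained were those of CDKN1A, BTG2, PLK3, AEN, PHLDA3, DDB2 and FDXR. In the same kind of fit 4 genes were higher and 4 lower in S434A than in WT cells without H89, where 32.3% of all genes were higher and 17.8% lower. The calls of CDKN1B, BTG2, CCNG1, SESN1, BAX, TNFRSF10A, PHLDA3, DDB2 and FDXR as lower ended there, at -1.01 to -0.02, and PLK3 and GDF15 were called higher. Without replicate 1 of S434A without H89, the counts were 11 higher and 12 lower for H89 in S434A cells, where 29.8% and 19.7% of all genes were. They were 4 higher and 12 lower for S434A against WT without H89, where 32.2% and 30.2% of all genes were. Without replicate 2 of that group 5 rose and 14 fell with H89 in S434A cells, where 17.7% and 25.7% of all genes did. In that fit CDKN1B, SESN1, ZMAT3, MDM2, FAS and XPC were no longer called higher. The number that rose in S434A cells was 4 without replicate 2 or 3 of S434A with H89, where 14.8% and 16% of all genes rose. For H89 in WT cells it was 5 without replicate 1 or 3 of WT with H89, where 29.8% and 29.1% of all genes rose. Without replicate 3 of S434A without H89, FAS (-1.07, adjusted p = 0.0365) and RRM2B (-1.45, adjusted p = 0.0289) were also called lower in S434A than in WT cells without H89, PLK3 was called higher (0.44, adjusted p = 0.00196), and PLK2 rose with H89 in S434A cells (0.53, adjusted p = 0.00965). A difference of H89 effects appeared for MDM2, TP53INP1 and BAX without replicate 1 of that group, for SESN1, CDKN1B, PLK2 and GDF15 without replicate 3, and for TNFRSF10A without replicate 1 of any group but WT with H89.

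Fold changes were also fitted after each library's smooth trend on gene length and GC content was removed, called trends removed from here on. In that fit 8 of the 29 genes rose and 8 fell with H89 in S434A cells, where 20.8% of all genes rose and 23.4% fell. In WT cells 12 rose and 11 fell with the inhibitor, where 38.4% and 34.9% of all genes did. Without H89, S434A cells had 3 genes higher and 12 lower than WT cells, where 29.7% and 28.8% of all genes were, and the difference of H89 effects was called more positive for 7 and more negative for 2, where 23.7% and 24.3% of all genes were called.

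**Figure D1:**
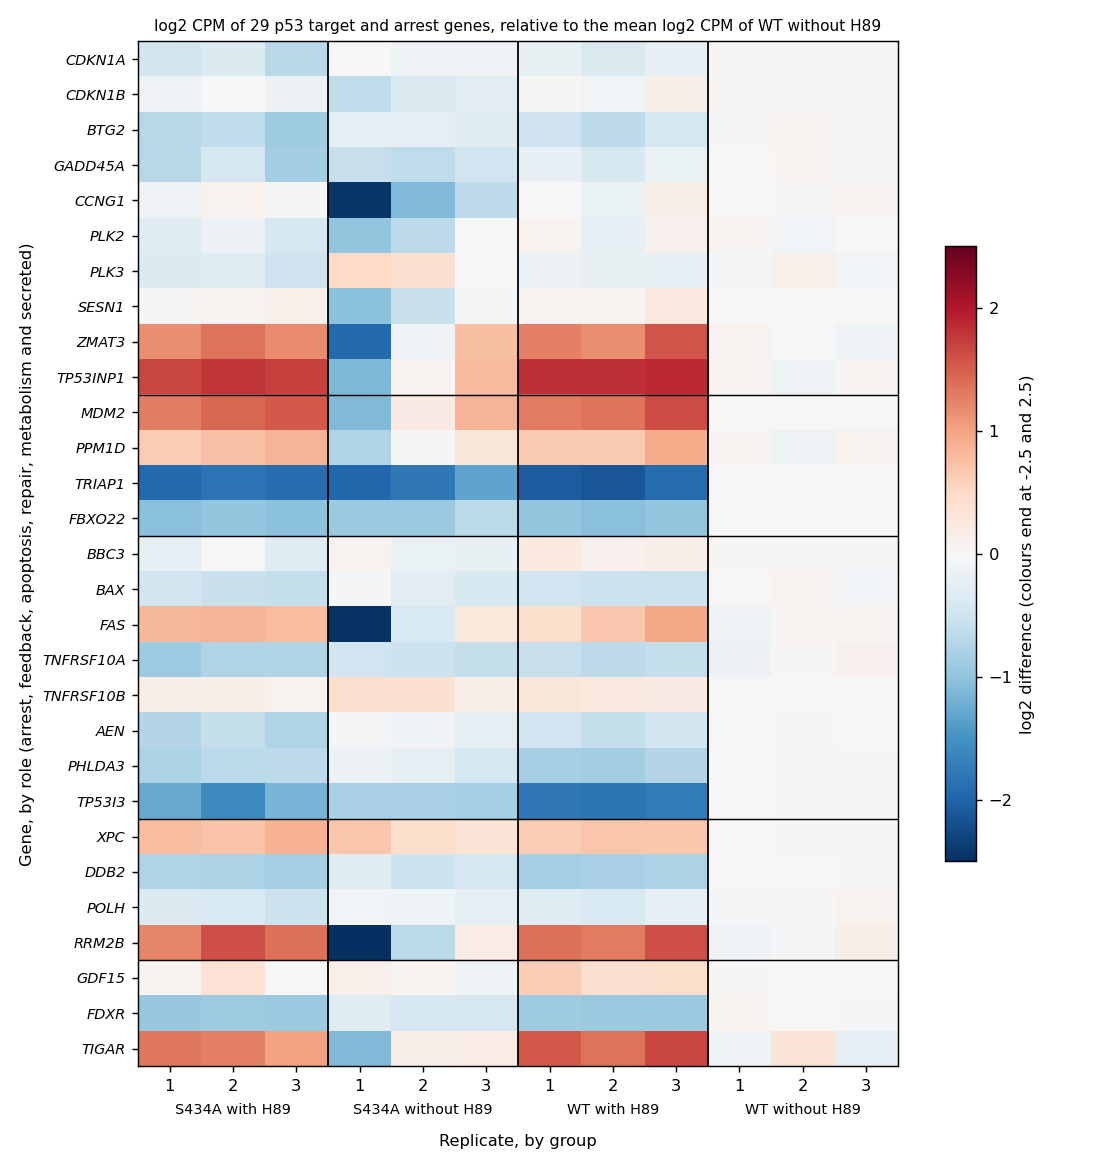
Heat map of the 29 genes (rows, by role) in 12 libraries (columns, by group and replicate), coloured by log2 CPM minus the gene's mean log2 CPM in WT without H89, with colours ending at -2.5 and 2.5. Both groups with H89 look alike within each row, WT without H89 is centred on 0 by construction of the scale, and replicate 1 of S434A without H89 is the darkest blue for RRM2B, FAS, CCNG1 and ZMAT3.

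Among the 10 arrest genes, CDKN1A itself fell slightly with H89, while TP53INP1 and ZMAT3 rose in both genotypes. CDKN1A (ENSG00000124762.14_5, hg19 chromosome 6, 36644237 to 36655114, plus strand) encodes p21. CDKN1A had 140.5, 152 and 118 CPM in S434A cells with H89 and 191, 175 and 180.1 CPM in S434A cells without H89. It had 169, 149.6 and 167 CPM in WT cells with H89 and 196.5, 195 and 185 CPM in WT cells without H89. Its libraries with H89 lay below those without in both genotypes, with no overlap. The log2 fold change with H89 was -0.41 ± 0.089, adjusted p = 0.00398 in S434A cells and -0.25 ± 0.088, adjusted p = 0.0259 in WT cells, and S434A and WT cells without H89 overlapped (-0.08 ± 0.088, adjusted p = 0.472). With trends removed both falls were lost, at -0.07, adjusted p = 0.59 in S434A cells and -0.03, adjusted p = 0.801 in WT cells, and the fall in WT cells also ended without replicate 1 or 2 of WT without H89 (-0.24, adjusted p 0.0678 to 0.0716). Its summed exons share 4.87% of their bases with an antisense gene, and the counting is not stated to use strand.

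CDKN1B (ENSG00000111276.11_8, hg19 chromosome 12, 12867992 to 12875303, plus strand), whose protein p27 inhibits CDK2 and is known to be controlled largely by its turnover, moved differently. CDKN1B had 75.4, 83.4 and 74.7 CPM in S434A cells with H89 and 53.003, 64.9 and 67.9 CPM in S434A cells without H89. It had 84.2, 79.1 and 92.1 CPM in WT cells with H89 and 84.7, 79.6 and 84.2 CPM in WT cells without H89. S434A without H89 was the lowest of the 4 groups and did not overlap the others. CDKN1B was lower in S434A than in WT cells without H89 (-0.42 ± 0.097, adjusted p = 0.00319), a call that ended with trends removed (-0.08), and it rose with H89 in S434A cells (0.33 ± 0.097, adjusted p = 0.0166). That rise was not called without any 1 replicate of S434A with H89, replicate 2 of S434A without H89 or any 1 replicate of WT with H89 (0.15 to 0.24, adjusted p 0.103 to 0.274). In WT cells the value with H89 was 0.04 ± 0.096, adjusted p = 0.728, against 0.48, adjusted p = 7.62e-05 with trends removed.

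GADD45A (ENSG00000116717.13_6, hg19 chromosome 1, 68150884 to 68154017, plus strand), a stress sensor of growth arrest, was lower in S434A than in WT cells without H89, while its H89 effects did not pass the test in the fit of all libraries. GADD45A had 53.7, 64.7 and 47.5 CPM in S434A cells with H89 and 58.3, 55.5 and 61.3 CPM in S434A cells without H89. It had 75.6, 66.02 and 77.2 CPM in WT cells with H89 and 86.4, 89.4 and 84.3 CPM in WT cells without H89. Without H89 all S434A libraries lay below all WT libraries (-0.57 ± 0.11, adjusted p = 0.000793), and the value stayed past the test with trends removed (-0.26, adjusted p = 0.0379). With H89 the S434A libraries were again the lower ones, at -0.40 ± 0.11, adjusted p = 1, which did not pass. For H89 in WT cells the value was -0.25 ± 0.11, adjusted p = 0.0546 and turned to 0.40, adjusted p = 0.00248 with trends removed, and in S434A cells it was -0.08 ± 0.11, adjusted p = 0.557. A fall was called in WT cells when any of 9 of the 12 libraries was left out, all but the 3 replicates of WT without H89 (-0.44 to -0.25, adjusted p 0.00152 to 0.0445), and in S434A cells without replicate 2 of S434A with H89 (-0.33, adjusted p = 0.0194). The fall in WT cells was called as well in a fit of only the WT groups (-0.40, adjusted p = 4.54e-06).

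TP53INP1 (ENSG00000164938.14_6, hg19 chromosome 8, 95938200 to 95961606, minus strand), a stress-induced nuclear protein that promotes p53 activity and autophagy, had the largest rise of the 29 genes with H89 in WT cells. TP53INP1 had 33.9, 36.6 and 34.5 CPM in S434A cells with H89 and 4.84, 11.1 and 18.4 CPM in S434A cells without H89. It had 37.7, 37.6 and 38.6 CPM in WT cells with H89 and 11.1, 9.75 and 11.03 CPM in WT cells without H89. Every library with H89 was above every library without it in both genotypes. The rise was 1.61 ± 0.34, adjusted p = 0.00374 in S434A cells and 1.83 ± 0.34, adjusted p = 0.000636 in WT cells, and remained past the test with trends removed, at 0.66 and 1.42. S434A and WT cells without H89 overlapped (0.11 ± 0.34, adjusted p = 0.805); without replicate 1 of the S434A libraries the value was 0.47, adjusted p = 0.0157.

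ZMAT3, an RNA-binding zinc finger protein, held 35.6 to 40.8 CPM in S434A cells with H89, 4.14 to 26.7 CPM in S434A cells without H89, 35.6 to 46.99 CPM in WT cells with H89 and 14.8 to 16.9 CPM in WT cells without H89. It rose with H89 in S434A cells (1.29 ± 0.46, adjusted p = 0.0352) and in WT cells (1.34 ± 0.45, adjusted p = 0.0218), and these values shrank to 0.09, adjusted p = 0.619 and 0.34, adjusted p = 0.0247 with trends removed. The rise in S434A cells was not called when any of 10 of the 12 libraries was left out, all but replicates 1 and 3 of S434A without H89 (1.10 to 1.29, adjusted p 0.05 to 0.112), nor the rise in WT cells when any of 10 of the 12 libraries was left out, all but replicates 1 and 3 of S434A without H89 (1.06 to 1.38, adjusted p 0.0512 to 0.0976). With only the groups compared in the fit, the rise was 1.19, adjusted p = 9.26e-09 in WT cells and 1.29, adjusted p = 0.139 in S434A cells. CCNG1, cyclin G1, which brings a phosphatase to MDM2, held 236, 271 and 250.5 CPM in S434A cells with H89, 47.5, 119 and 163 CPM in S434A cells without H89, 259, 229.8 and 282 CPM in WT cells with H89 and 258, 247 and 264 CPM in WT cells without H89. S434A cells without H89 lay below all other groups: CCNG1 was lower in S434A than in WT cells without H89 (-1.22 ± 0.32, adjusted p = 0.00744) and rose with H89 in S434A cells (1.20 ± 0.32, adjusted p = 0.0116), with 0.003 ± 0.32 in WT cells. With trends removed these values were -0.33, 0.44 and 0.22, all past the test, and the difference of H89 effects (1.20 ± 0.45, adjusted p = 0.0489) was no longer called at 0.22. The difference was also not called when any of 10 of the 12 libraries was left out, all but replicates 1 and 3 of S434A without H89 (1.151 to 1.29, adjusted p 0.0639 to 0.0962), and the rise in S434A cells ended without replicate 2 of S434A with H89 (1.02, adjusted p = 0.0528).

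BTG2, an antiproliferative cofactor of mRNA deadenylation, fell with H89 in both genotypes, to 27.7 to 32.8 CPM in S434A cells with H89 against 41.5 to 42.9 CPM without it (-0.47 ± 0.081, adjusted p = 0.00134), and to 32.5 to 37.3 CPM in WT cells with H89 against 49.9 to 52.7 CPM without it (-0.54 ± 0.081, adjusted p = 0.000138). With trends removed the fall was -0.27, adjusted p = 0.00908 in S434A cells and -0.08, adjusted p = 0.319 in WT cells. Without H89 it was lower in S434A than in WT cells (-0.26 ± 0.081, adjusted p = 0.0158), a call lost with trends removed (-0.04) and without replicate 2 of WT without H89 (-0.24, adjusted p = 0.0581). The polo-like kinase PLK3 ran at 13.99 to 16.2 CPM in S434A cells with H89, 20.05 to 28.4 CPM in S434A cells without H89, 17.3 to 18.1 CPM in WT cells with H89 and 19.03 to 21.9 CPM in WT cells without H89, and fell with H89 in S434A cells (-0.70 ± 0.13, adjusted p = 0.00176). In WT cells the value with H89 was -0.18 ± 0.13, adjusted p = 0.224, which passed the test without replicate 2 or 3 of S434A with H89 or replicate 2 of S434A without H89 (-0.33, adjusted p 0.0417 to 0.0484). PLK3 also passed it in a fit of only the WT groups (-0.32, adjusted p = 0.00114). PLK2, a related kinase, passed no test with all libraries, at 7.82 to 9.38 CPM in S434A cells with H89, 5.27 to 10.5 CPM in S434A cells without H89, 8.99 to 11.2 CPM in WT cells with H89 and 9.92 to 10.9 CPM in WT cells without H89, but in S434A against WT without H89 it was called lower without replicate 3 of S434A without H89 (-0.81, adjusted p = 0.000647). SESN1, a sestrin that restrains mTORC1, was lower in S434A than in WT cells without H89, at 15.6 to 30.8 CPM against 31.5 to 32.2 CPM (-0.49 ± 0.18, adjusted p = 0.0413), and rose with H89 in S434A cells to 32.4 to 34.95 CPM (0.56 ± 0.18, adjusted p = 0.0263). Both SESN1 calls ended with trends removed (-0.16 and 0.03). The first also ended without replicate 1 or 2 of S434A without H89 or any 1 replicate of WT without H89 (-0.50 to -0.28, adjusted p 0.0534 to 0.0939), and the rise without any 1 replicate of S434A with H89, replicate 2 of S434A without H89 or any 1 replicate of WT with H89 (0.40 to 0.46, adjusted p 0.082 to 0.154). In all, 5 of the 10 arrest genes were lower in S434A than in WT cells without H89 and none higher. With H89, 5 of the 10 rose and 3 fell in S434A cells, where 29.3% and 22.7% of all genes did. In WT cells 2 rose and 2 fell, where 38.8% and 30.9% of all genes did. With trends removed 1 arrest gene was higher and 2 were lower in S434A than in WT cells without H89. Of all genes 29.7% and 28.8% were. In that fit 3 rose and 2 fell with H89 in S434A cells, where 20.8% and 23.4% of all genes did. In WT cells 5 rose and 1 fell, where 38.4% and 34.9% of all genes did.

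**Figure D2:**
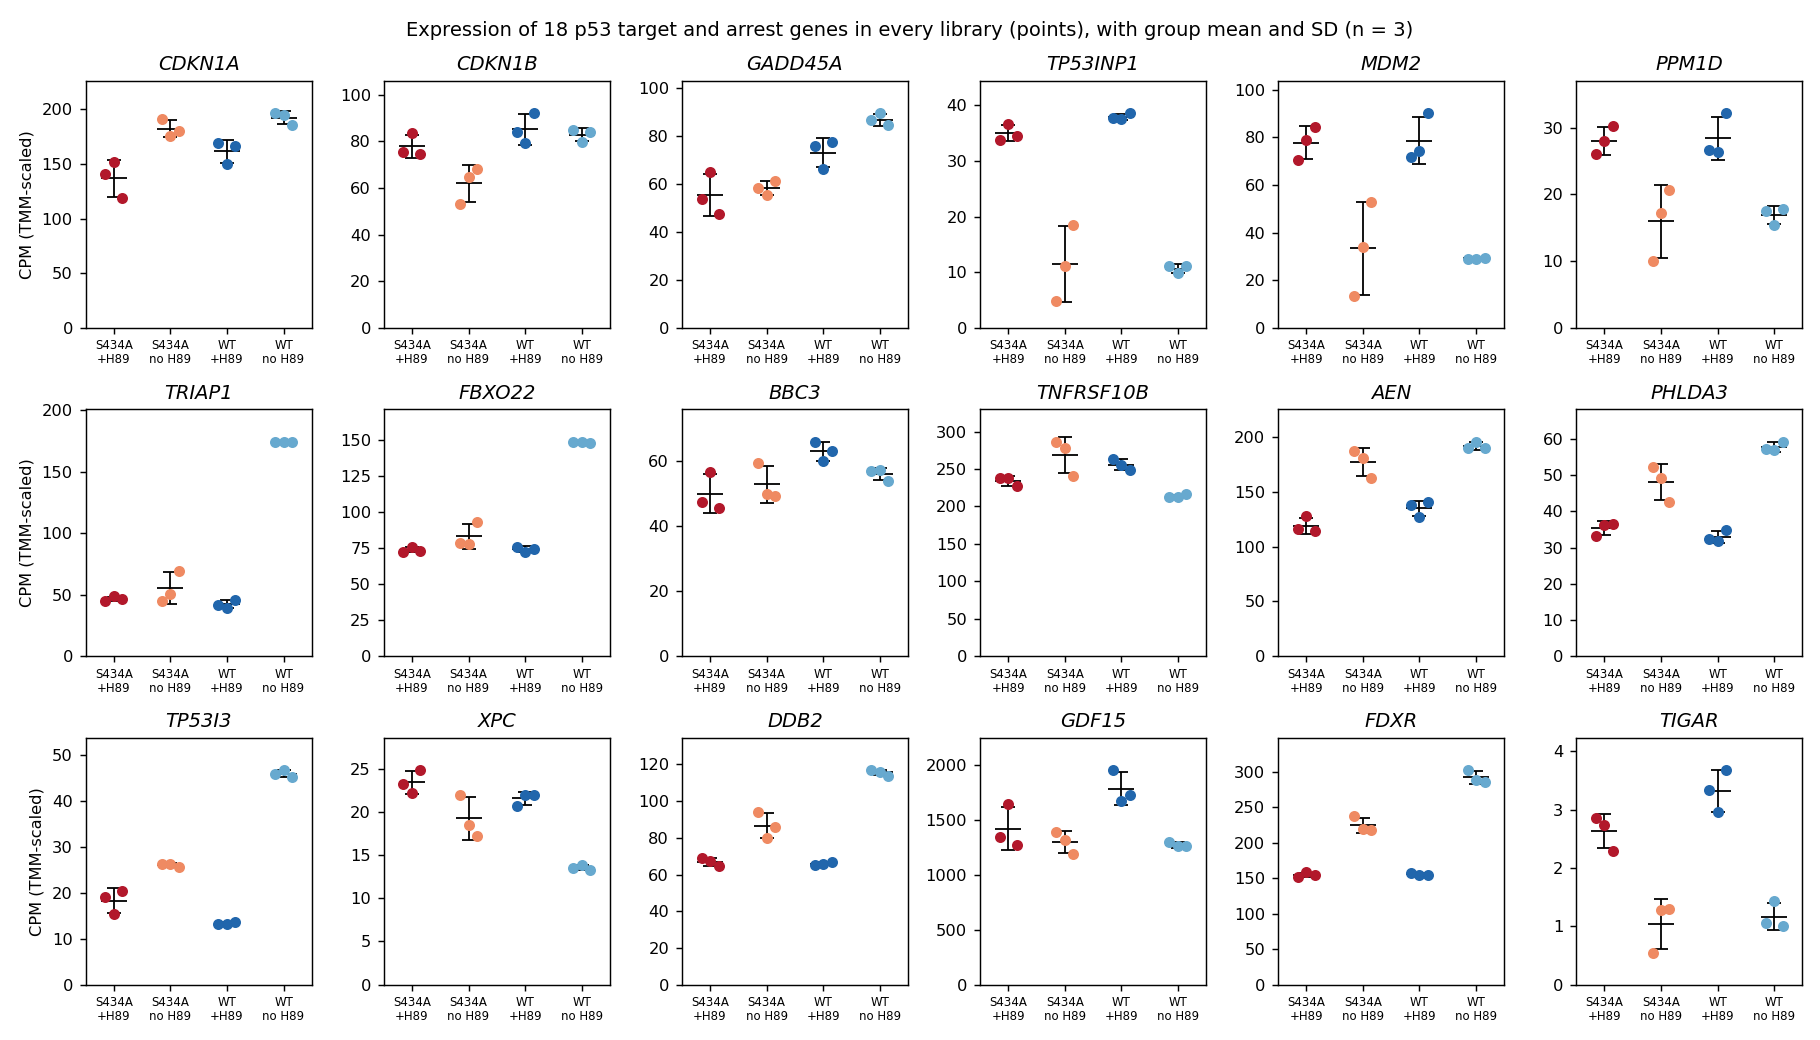
Level of 18 of the genes in every library, in TMM-scaled CPM on axes that start at 0, with each group's mean and SD (n = 3) as black bars. MDM2, TP53INP1, PPM1D and TIGAR are higher in both groups with H89, while TRIAP1 and FBXO22 are high in WT without H89 alone.

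The 4 genes that act back on p53 or protect cells held a pair that rose with H89 in both genotypes and a pair that fell with H89 in WT cells, and with trends removed 1 rose and 2 fell in S434A cells. As fitted, 29.3% of all genes rose and 22.7% fell with H89 in S434A cells, and 38.8% and 30.9% did in WT cells. With trends removed 20.8% of all genes rose and 23.4% fell in S434A cells. MDM2 (ENSG00000135679.25_9, hg19 chromosome 12, 69201957 to 69244466, plus strand), the ligase that marks p53 for destruction, and PPM1D, the phosphatase Wip1 that reverses damage signalling to p53, rose with H89. MDM2 had 70.5, 78.8 and 84.3 CPM in S434A cells with H89 and 13.5, 33.7 and 52.7 CPM in S434A cells without H89. It had 71.6, 74.2 and 90.2 CPM in WT cells with H89 and 28.98, 28.9 and 29.4 CPM in WT cells without H89. The libraries with H89 did not overlap those without it, and the replicates of S434A without H89 spanned the WT level. The rise with H89 was 1.23 ± 0.35, adjusted p = 0.0154 in S434A cells and 1.44 ± 0.35, adjusted p = 0.00404 in WT cells. With trends removed it came to 0.13, adjusted p = 0.257 in S434A cells and 0.31, adjusted p = 0.00667 in WT cells; at 13448 bases of summed exons MDM2 is the longest of the 29 genes. The rise in S434A cells was not called without replicate 2 or 3 of S434A with H89 or replicate 2 of S434A without H89 (1.04 to 1.11, adjusted p 0.0568 to 0.0628). S434A against WT without H89 gave 0.20 ± 0.35, adjusted p = 0.659, and without replicate 1 of the S434A libraries 0.57, adjusted p = 0.0042. The p53 matches in its window shown above stand beside these values as a description.

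PPM1D (ENSG00000170836.12_5, hg19 chromosome 17, 58677544 to 58743641, plus strand) rose by less, and its calls held with trends removed. PPM1D had 26.05, 27.9 and 30.2 CPM in S434A cells with H89 and 9.95, 17.2 and 20.6 CPM in S434A cells without H89. It had 26.7, 26.4 and 32.2 CPM in WT cells with H89 and 17.4, 15.3 and 17.8 CPM in WT cells without H89. Libraries with H89 were above those without it in both genotypes. The rise was 0.82 ± 0.21, adjusted p = 0.00956 in S434A cells and 0.75 ± 0.21, adjusted p = 0.00809 in WT cells, with 0.51 and 0.70 when trends were removed, both past the test. The rise in S434A cells was not called without replicate 3 of S434A with H89 (0.63, adjusted p = 0.0604), nor the rise in WT cells without replicate 3 of WT with H89 (0.51, adjusted p = 0.0881). Between S434A and WT cells it did not pass the test with or without H89 (-0.02 and -0.08).

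TRIAP1 (ENSG00000170855.4_6, hg19 chromosome 12, 120881767 to 120884187, minus strand), a p53-induced inhibitor of apoptosis that takes part in mitochondrial lipid transfer, had the largest fall of the 29 genes with H89 in WT cells. TRIAP1 had 45.1, 48.5 and 46.5 CPM in S434A cells with H89 and 44.9, 50.7 and 69.6 CPM in S434A cells without H89. It had 41.3, 39.4 and 45.95 CPM in WT cells with H89 and 174, 174 and 174 CPM in WT cells without H89. WT cells without H89 stood alone, since the other 9 libraries lay between 39.4 and 69.6 CPM. TRIAP1 was lower in S434A than in WT cells without H89 (-1.66 ± 0.14, adjusted p = 2.68e-06) and fell with H89 in WT cells (-2.04 ± 0.14, adjusted p = 2.28e-07), while the value with H89 in S434A cells was -0.24 ± 0.13, adjusted p = 0.156, which passed the test without replicate 1 or 2 of S434A without H89 or replicate 2 or 3 of WT with H89 (-0.42 to -0.36, adjusted p 0.0112 to 0.0483). The difference of H89 effects was 1.81 ± 0.19, adjusted p = 3.41e-05. With trends removed all 3 calls remained, at -0.84, -1.26 and 0.92, and a fall with H89 in S434A cells was called as well. TRIAP1 is the shortest of the 29 genes, at 1411 bases of summed exons.

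FBXO22 (ENSG00000167196.14_8, hg19 chromosome 15, 76196217 to 76234852, plus strand), the substrate receptor of a ubiquitin ligase that acts on methylated p53, was likewise highest in WT cells without H89. FBXO22 had 72.4, 76.1 and 73.4 CPM in S434A cells with H89 and 78.6, 77.9 and 93.3 CPM in S434A cells without H89. It had 76.03, 72.1 and 74.6 CPM in WT cells with H89 and 149, 149 and 148 CPM in WT cells without H89. Again WT without H89 was apart from the rest. It was lower in S434A than in WT cells without H89 (-0.84 ± 0.072, adjusted p = 3.84e-06) and fell with H89 in WT cells (-1.002 ± 0.072, adjusted p = 3.98e-07), with a difference of H89 effects of 0.83 ± 0.10, adjusted p = 9.07e-05. In S434A cells the value with H89 was -0.17 ± 0.072, adjusted p = 0.0666, which passed the test without any 1 replicate of S434A with H89, replicate 1 or 2 of S434A without H89 or any 1 replicate of WT with H89 (-0.34 to -0.21, adjusted p 0.00781 to 0.0302). FBXO22 is both long (11821 bases) and poor in GC (37.66%). With trends removed the first 3 of these values were 0.03, -1.87 and -0.10, of which only the fall with H89 in WT cells was called. In that fit FBXO22 was also called lower with H89 in S434A cells. Its exons share 16.2% of their bases with the antisense gene NRG4.

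Of the 8 apoptosis genes 6 fell and 1 rose with H89 in S434A cells, where 22.7% and 29.3% of all genes did. In WT cells 5 of them fell and 1 rose, where 30.9% and 38.8% of all genes did. With trends removed 1 fell and 0 rose in S434A cells, where 23.4% and 20.8% of all genes did. In WT cells 5 fell and 1 rose in that fit, where 34.9% and 38.4% of all genes did. TP53I3 (ENSG00000115129.14_6, hg19 chromosome 2, 24300303 to 24308731, minus strand), a quinone oxidoreductase induced before p53-dependent apoptosis, had the smallest p of the 29 genes for H89 in WT cells. TP53I3 had 19.2, 15.3 and 20.4 CPM in S434A cells with H89 and 26.3, 26.3 and 25.6 CPM in S434A cells without H89. It had 13.2, 13.1 and 13.6 CPM in WT cells with H89 and 45.8, 46.7 and 45.1 CPM in WT cells without H89. The 4 groups did not overlap and ran in the order WT with H89, S434A with H89, S434A without H89 and WT without H89, low to high. TP53I3 fell with H89 in S434A cells (-0.51 ± 0.099, adjusted p = 0.00234) and by more in WT cells (-1.78 ± 0.10, adjusted p = 6.11e-08), and the difference of these effects was 1.27 ± 0.14, adjusted p = 4.68e-05. It was lower in S434A than in WT cells without H89 (-0.82 ± 0.098, adjusted p = 3.76e-05). With trends removed the WT fall was -1.36 and the difference 1.22, and the fall in S434A cells was no longer called (-0.14). With H89 in both genotypes S434A was higher by 0.46 ± 0.10, the only value of the 29 in that direction with an unadjusted p under 0.05, which did not survive adjustment (adjusted p = 1).

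AEN (ENSG00000181026.15_5, hg19 chromosome 15, 89164568 to 89175512, plus strand), a nuclease that enhances apoptosis, fell with H89 in both genotypes. AEN had 116, 127 and 114 CPM in S434A cells with H89 and 188, 181 and 162.5 CPM in S434A cells without H89. It had 138, 127 and 140.2 CPM in WT cells with H89 and 189.5, 196 and 190.3 CPM in WT cells without H89. All libraries with H89 were below all libraries without it. The fall was -0.57 ± 0.071, adjusted p = 0.000184 in S434A cells and -0.51 ± 0.071, adjusted p = 7.25e-05 in WT cells, and -0.49 and -0.68 with trends removed. PHLDA3 (ENSG00000174307.7_6, hg19 chromosome 1, 201433406 to 201438365, minus strand), which represses AKT signalling, likewise fell. PHLDA3 had 33.2, 36.4 and 36.6 CPM in S434A cells with H89 and 52.4, 49.3 and 42.5 CPM in S434A cells without H89. It had 32.4, 31.7 and 34.7 CPM in WT cells with H89 and 57.2, 56.9 and 59.3 CPM in WT cells without H89. The fall was -0.44 ± 0.085, adjusted p = 0.00229 in S434A cells and -0.81 ± 0.085, adjusted p = 8.15e-06 in WT cells, and only the fall in WT cells was still called with trends removed (-0.09 and -0.74). Without H89 PHLDA3 was lower in S434A than in WT cells (-0.27 ± 0.084, adjusted p = 0.0186), and -0.54 with trends removed, a call that ended without replicate 3 of WT without H89 (-0.25, adjusted p = 0.0591). Its exons share 18.4% of their bases with another gene on the same strand.

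The death receptors did not move together. TNFRSF10B (ENSG00000120889.13_6, hg19 chromosome 8, 22877646 to 22926544, minus strand), the TRAIL receptor DR5, was the only one of the 29 genes called in opposite directions with H89. TNFRSF10B had 238, 238 and 227 CPM in S434A cells with H89 and 287, 279 and 241 CPM in S434A cells without H89. It had 264, 255 and 248.6 CPM in WT cells with H89 and 213, 213 and 216 CPM in WT cells without H89. WT cells without H89 were the lowest group and S434A cells without H89 included the highest libraries. It was higher in S434A than in WT cells without H89 (0.33 ± 0.066, adjusted p = 0.00133) and fell with H89 in S434A cells (-0.20 ± 0.066, adjusted p = 0.0273), but rose with H89 in WT cells (0.26 ± 0.066, adjusted p = 0.00504). The difference of H89 effects was -0.46 ± 0.093, adjusted p = 0.00214, and -0.38, adjusted p = 0.000507 with trends removed, while the fall in S434A cells alone was then not called (-0.12); it was not called either without replicate 1 of S434A without H89 (-0.15, adjusted p = 0.0765). The rise in WT cells was not called without any 1 replicate of S434A with H89, replicate 2 of S434A without H89 or any 1 replicate of WT with H89 (0.07 to 0.13, adjusted p 0.163 to 0.414). TNFRSF10A, the receptor DR4, fell in S434A cells with H89 to 10.5 to 11.7 CPM against 12.98 to 13.99 CPM (-0.26 ± 0.097, adjusted p = 0.044) and in WT cells with H89 to 12.6 to 13.2 CPM against 17.8 to 21.2 CPM (-0.61 ± 0.096, adjusted p = 0.000192), and both calls ended with trends removed (-0.08 and -0.18), the first also without replicate 1 of S434A without H89 or replicate 2 or 3 of WT without H89 (-0.26 to -0.23, adjusted p 0.0545 to 0.0849). Without H89 it was lower in S434A than in WT cells (-0.55 ± 0.096, adjusted p = 0.000517; -0.34 with trends removed). FAS, another death receptor, rose with H89 in S434A cells to 6.57 to 6.96 CPM against 0.700 to 4.62 CPM (1.28 ± 0.42, adjusted p = 0.0262), a call that ended with trends removed (0.31) and without any 1 replicate of S434A with H89, replicate 2 of S434A without H89 or replicate 1 or 2 of WT with H89 (1.14 to 1.21, adjusted p 0.0515 to 0.0862). In WT cells it had 5.26 to 7.54 CPM with H89 and 3.60 to 4.03 CPM without it (0.71 ± 0.40, adjusted p = 0.134), which passed the test without replicate 1 or 3 of S434A without H89 (0.71, adjusted p 0.000777 to 0.0491), and 40.6% of its exon bases are shared with other genes. FAS also passed it in a fit of only the WT groups (0.57, adjusted p = 0.00111).

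BAX, the pore-forming member of the BCL2 family, fell with H89 in S434A cells to 143 to 157 CPM against 164 to 208 CPM (-0.30 ± 0.082, adjusted p = 0.0119), and in WT cells to 148 to 153 CPM against 206 to 226 CPM (-0.52 ± 0.082, adjusted p = 0.000187). Without H89 it was lower in S434A than in WT cells (-0.23 ± 0.082, adjusted p = 0.032), a call that ended without replicate 2 or 3 of S434A without H89 or replicate 1 or 2 of WT without H89 (-0.24 to -0.15, adjusted p 0.0588 to 0.106). With trends removed the S434A value turned to 0.07, and the WT fall was -0.21, past the test. BBC3 (ENSG00000105327.18_6, hg19 chromosome 19, 47724079 to 47736023, minus strand), which encodes the BH3-only killer PUMA, passed no test with all libraries. BBC3 had 47.5, 56.8 and 45.5 CPM in S434A cells with H89 and 59.4, 50.03 and 49.2 CPM in S434A cells without H89. It had 66.02, 60.1 and 63.2 CPM in WT cells with H89 and 57.1, 57.2 and 53.9 CPM in WT cells without H89. In the comparisons made its groups overlapped, except that S434A and WT libraries with H89 were separate (-0.34 ± 0.099, adjusted p = 1) and WT libraries with H89 lay above those without (0.17 ± 0.099, adjusted p = 0.142). A fall with H89 in S434A cells was called without replicate 2 of S434A with H89 (-0.31, adjusted p = 0.0291). BBC3 has the highest GC content of the 29 genes, 69.7%, and with trends removed it was called lower with H89 in WT cells (-0.40) and lower in S434A than in WT cells without H89 (-0.86).

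The 4 genes of repair and nucleotide supply split evenly, with 2 rising and 2 falling with H89 in each genotype. Of all genes 29.3% rose and 22.7% fell in S434A cells, and 38.8% and 30.9% did in WT cells. XPC (ENSG00000154767.15_6, hg19 chromosome 3, 14186647 to 14220121, minus strand), which recognises DNA lesions in nucleotide excision repair, rose. XPC had 23.2, 22.2 and 24.8 CPM in S434A cells with H89 and 22.01, 18.4 and 17.2 CPM in S434A cells without H89. It had 20.7, 21.9 and 22.01 CPM in WT cells with H89 and 13.5, 13.9 and 13.3 CPM in WT cells without H89. WT cells without H89 were lowest and did not overlap any other group. XPC was higher in S434A than in WT cells without H89 (0.51 ± 0.10, adjusted p = 0.00129) and rose with H89 in S434A cells (0.28 ± 0.10, adjusted p = 0.0352) and in WT cells (0.67 ± 0.10, adjusted p = 0.000134). With trends removed these were 0.34, 0.46 and 0.69, all past the test. The rise in S434A cells was not called when any of 11 of the 12 libraries was left out, all but replicate 1 of S434A without H89 (0.11 to 0.28, adjusted p 0.0519 to 0.426). Because 24.6% of the XPC exon bases are shared with other genes, chiefly its antisense gene XPC-AS1, reads of both cannot be told apart where the counting used no strand.

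DDB2 (ENSG00000134574.12_4, hg19 chromosome 11, 47236016 to 47260768, plus strand), a damage sensor of the same pathway, fell. DDB2 had 69.1, 67.1 and 64.8 CPM in S434A cells with H89 and 94.1, 80.1 and 86.001 CPM in S434A cells without H89. It had 65.1, 65.9 and 66.6 CPM in WT cells with H89 and 117, 116 and 114 CPM in WT cells without H89. Libraries with H89 overlapped between the genotypes and lay below those without, and S434A cells without H89 lay between. The fall was -0.37 ± 0.065, adjusted p = 0.00133 in S434A cells and -0.81 ± 0.065, adjusted p = 9.15e-07 in WT cells, the difference of H89 effects was 0.44 ± 0.091, adjusted p = 0.00226, and S434A against WT without H89 was -0.41 ± 0.064, adjusted p = 0.000221. With trends removed all 4 were called, at -0.22, -0.82, 0.60 and -0.58, but in a fit of only the groups compared the last came to -0.20, adjusted p = 0.081, which did not pass. POLH, the translesion polymerase eta, fell with H89 in S434A cells to 27.05 to 31.04 CPM against 33.8 to 37.7 CPM (-0.29 ± 0.083, adjusted p = 0.0149) and in WT cells to 30.3 to 33.4 CPM against 37.9 to 41.98 CPM (-0.30 ± 0.082, adjusted p = 0.00684), and more steeply with trends removed (-0.55 and -0.79). RRM2B, the p53-inducible subunit of ribonucleotide reductase, had 37.7, 49.96 and 42.1 CPM in S434A cells with H89, 1.83, 10.2 and 18.6 CPM in S434A cells without H89, 42.1, 39.8 and 49.7 CPM in WT cells with H89 and 15.2, 15.7 and 18.03 CPM in WT cells without H89. Its replicates in S434A without H89 differed 10.2-fold, the widest of the 29 genes. It rose with H89 in S434A cells (2.08 ± 0.54, adjusted p = 0.0096) and in WT cells (1.43 ± 0.52, adjusted p = 0.0299), and by 1.06 and 1.12 with trends removed. The rise in WT cells was not called when any of 10 of the 12 libraries was left out, all but replicates 1 and 3 of S434A without H89 (1.18 to 1.5, adjusted p 0.0635 to 0.11). With only the groups compared in the fit, the rise was 1.28, adjusted p = 7.18e-10 in WT cells and 2.08, adjusted p = 0.0788 in S434A cells.

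The 3 genes of metabolism or secretion each took their own course. GDF15 (ENSG00000130513.6_6, hg19 chromosome 19, 18485541 to 18499986, plus strand), a secreted stress hormone of the TGF-beta family, had the highest level per length of exon of the 29 genes in all groups, 681 CPM per kb in S434A with H89, 622 in S434A without H89, 857 in WT with H89 and 610 in WT without H89. GDF15 had 1342, 1647 and 1276.5 CPM in S434A cells with H89 and 1389, 1318 and 1188 CPM in S434A cells without H89. It had 1956, 1677 and 1729 CPM in WT cells with H89 and 1301, 1261 and 1259.9 CPM in WT cells without H89. WT cells with H89 lay above the WT cells without it, and above the S434A cells with H89. In S434A cells the value with H89 was 0.13 ± 0.099, adjusted p = 0.285, and it was called with trends removed (0.50, adjusted p = 0.0014). In WT cells GDF15 rose with H89 (0.49 ± 0.099, adjusted p = 0.00111), by 0.78 with trends removed, a call that ended without replicate 1 of WT with H89 (0.26, adjusted p = 0.0536). The difference of H89 effects did not pass (-0.36 ± 0.14, adjusted p = 0.0551), but did without replicate 2 of S434A with H89 or replicate 3 of S434A without H89 (-0.45 to -0.42, adjusted p 0.0114 to 0.0238).

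FDXR (ENSG00000161513.12_7, hg19 chromosome 17, 72858619 to 72869156, minus strand), the mitochondrial ferredoxin reductase, fell with H89 in both genotypes. FDXR had 152, 158 and 154 CPM in S434A cells with H89 and 237, 219 and 218 CPM in S434A cells without H89. It had 157, 154 and 154 CPM in WT cells with H89 and 302, 288 and 285 CPM in WT cells without H89. Both groups with H89 overlapped, and S434A cells without H89 lay between them and WT cells without H89. The fall was -0.54 ± 0.052, adjusted p = 4.56e-05 in S434A cells and -0.91 ± 0.053, adjusted p = 7.04e-08 in WT cells, with a difference of 0.37 ± 0.074, adjusted p = 0.00181. Without H89 FDXR was lower in S434A than in WT cells (-0.38 ± 0.052, adjusted p = 9.92e-05). With trends removed the values were -0.22, -1.07, 0.85 and -0.84, all called, but in a fit of only the groups compared S434A against WT without H89 gave -0.17, adjusted p = 0.0856, which did not pass. TIGAR (ENSG00000078237.7_6, hg19 chromosome 12, 4416929 to 4469194, plus strand), a phosphatase that diverts glucose to the pentose phosphate pathway, had the lowest level per length of exon in all groups, 0.11 to 0.352 CPM per kb. TIGAR had 2.85, 2.74 and 2.30 CPM in S434A cells with H89 and 0.538, 1.27 and 1.30 CPM in S434A cells without H89. It had 3.34, 2.95 and 3.68 CPM in WT cells with H89 and 1.06, 1.43 and 0.9996 CPM in WT cells without H89. All libraries with H89 lay above all libraries without. The rise was 1.33 ± 0.26, adjusted p = 0.00246 in S434A cells and 1.52 ± 0.24, adjusted p = 0.000167 in WT cells, and 0.63 and 0.76 with trends removed. Its exons share 19.4% of their bases with other genes.

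**Figure D3:**
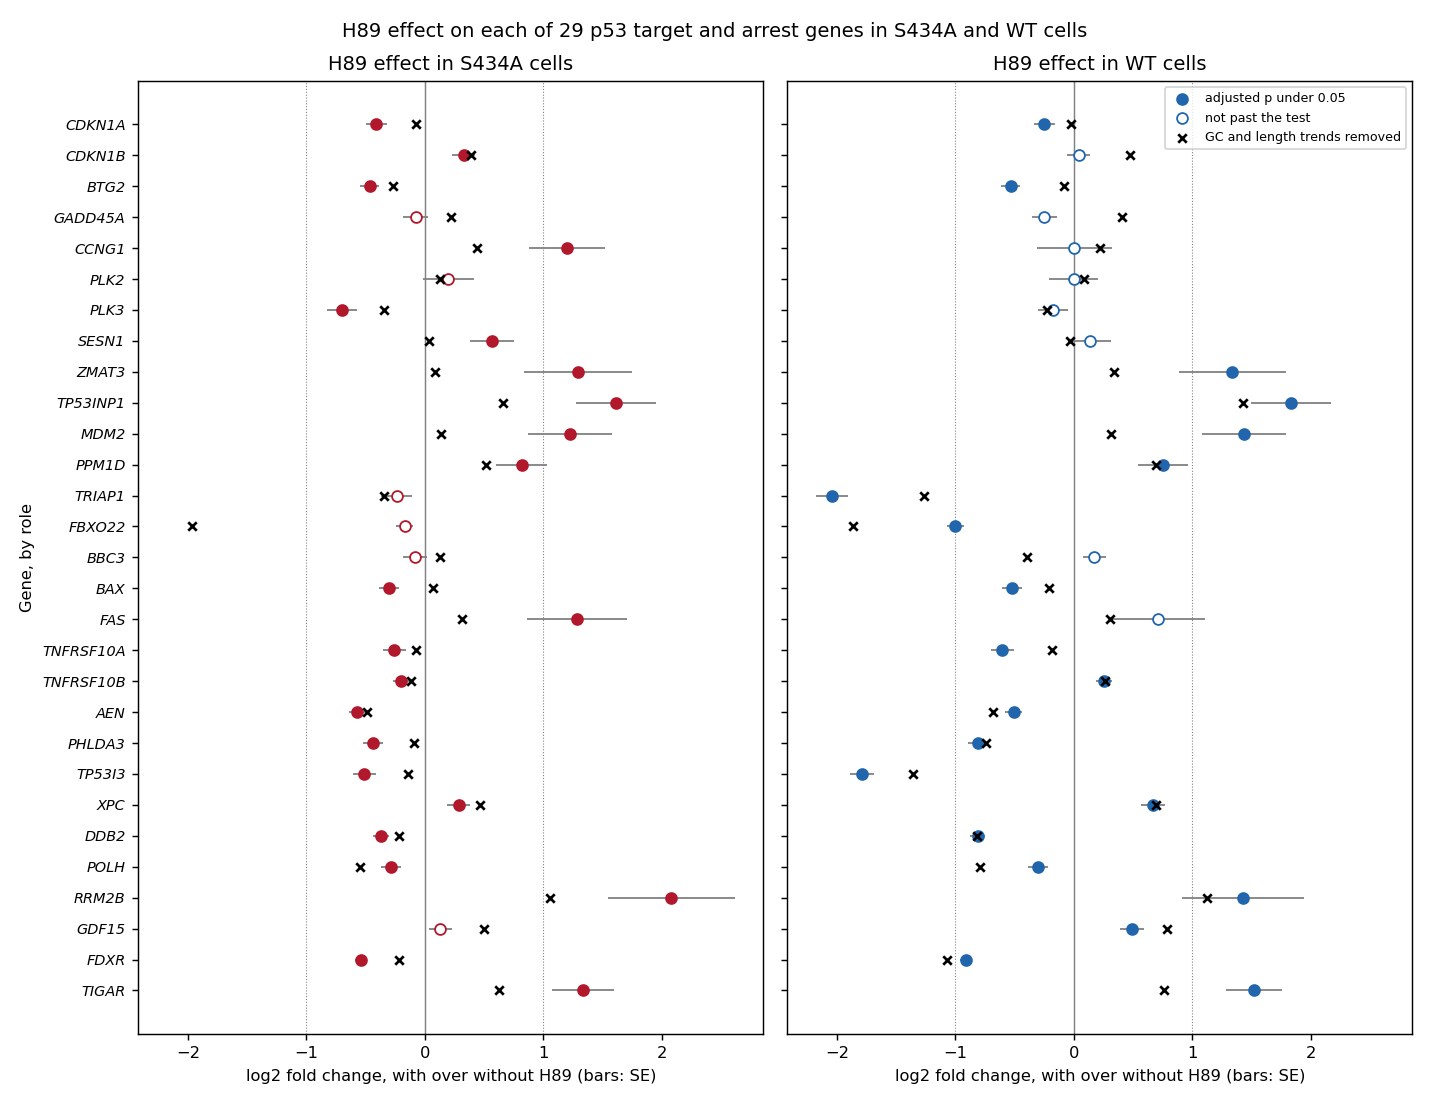
Log2 fold change with over without H89 for each gene, S434A cells on the left and WT cells on the right, with bars for the SE, filled circles for adjusted p under 0.05, open circles for the rest, and crosses for the value with length and GC trends removed. Crosses of MDM2 and ZMAT3 move close to 0, those of FBXO22 move far to the left, and TP53INP1, RRM2B, TIGAR and PPM1D stay to the right in both panels.

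Set side by side, the H89 effects in the 2 genotypes come from separate libraries. As fitted, 7 genes rose in both, 10 fell in both and 1 was called in opposite directions, where 18.1%, 15.9% and 4.05% of all tested genes were. With trends removed as well, 9 genes had the same call in both genotypes and in both fits, which use the same 12 libraries. TP53INP1, PPM1D, XPC, RRM2B and TIGAR were higher, and AEN, DDB2, POLH and FDXR lower. By the same rule 9.85% of all genes were higher and 9.69% lower. With only the S434A groups in the fit, TP53INP1, PPM1D, XPC, RRM2B and POLH were not called (adjusted p 0.0525 to 0.161). AEN, DDB2, FDXR and TIGAR still were. The XPC rise in S434A cells also ended when any of 11 of the 12 libraries was left out. The RRM2B rise in WT cells ended when any of 10 was. Of the 23 genes called for H89 in S434A cells, 13 kept their call with trends removed, for H89 in WT cells 18 of 21, for S434A against WT without H89 11 of 15, and for the difference of H89 effects 6 of 10, and none was called in the opposite direction.

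The fold changes varied with gene length and GC content, to a differing degree by comparison. Across the 29, Spearman's rho of the H89 effect in S434A cells was 0.40 with length and -0.71 with GC content, against 0.37 and -0.66 over all genes. For H89 in WT cells rho was 0.47 with length and -0.39 with GC content, against 0.46 and -0.08 over all genes. For S434A against WT without H89 it was 0.29 and 0.32, against 0.25 and 0.45, and for S434A against WT with H89 0.10 and -0.20, against -0.11 and -0.17 over all genes. These describe genes that share libraries and are not independent replicates. The 9 genes that rose with H89 in WT cells had a median exon length of 5391 bases and a median GC content of 44.2%, and the 12 that fell had 3120 bases and 51.3%. Whether library preparation or RNA quality plays a part in these trends was not tested.

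**Figure D4:**
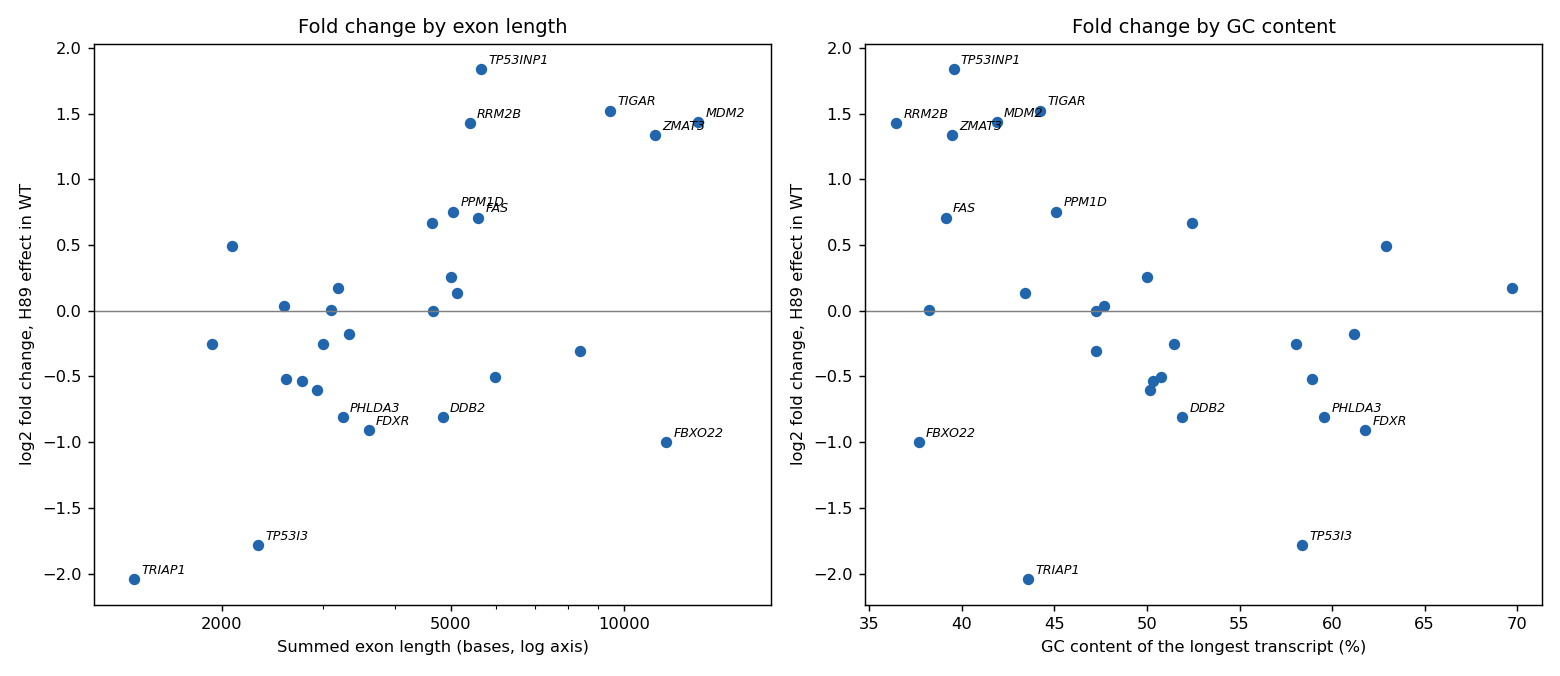
Log2 fold change with over without H89 in WT cells for each of the 29 genes (points) against summed exon length in bases on a log axis (left) and GC content of the longest transcript in percent (right). MDM2, ZMAT3 and TIGAR are long and raised, TRIAP1 is the shortest and lowest, and FBXO22 is long and lower.

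In S434A cells without H89 the spread was uneven over the genes. For 11 of the 29 genes the highest replicate exceeded the lowest by more than 1.5 times, and for none of the 29 in any of the other 3 groups. The wide spread was not particular to the 29. Over all tested genes the biological coefficient of variation was 0.351 in this group and 0.0191 to 0.0733 in the others. The share of all genes past 1.5 times, and their order by replicate, were not counted. Replicate 1 was the lowest for 12 genes and the highest for 13, replicate 3 the lowest for 13 and the highest for 14, and replicate 2 lay between the others for most. MDM2, TP53INP1, ZMAT3, RRM2B, FAS and CCNG1 had their lowest value in replicate 1 and their highest in replicate 3, while AEN, PHLDA3, BAX and XPC had the reverse.

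With H89 in both genotypes, no difference between S434A and WT cells in the 29 genes passed the edgeR test, with an adjusted p of 1 for each of them. The log2 fold changes lay between -0.40 for GADD45A and 0.46 for TP53I3, with a median of -0.10. At an unadjusted p under 0.05 there were 1 higher and 6 lower among the 29, where 4.08% of all tested genes passed in either direction. DESeq2 called 2 genes in all, limma-voom 0, and its version that weights groups by quality 3, and none of these was among the 29. The lowest-lying were GADD45A, described above, BBC3 at -0.34 ± 0.099, TIGAR at -0.34 ± 0.22, and GDF15 at -0.33 ± 0.099.

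Other genes of the pathway, from lists drawn up for this comparison, were also counted. Of 22 regulators and relatives of p53, 21 were tested. With H89, 13 rose and 3 fell in S434A cells, where 29.3% and 22.7% of all genes did. Their median log2 fold change was 0.59, against 0.01 over all genes. In WT cells 12 rose and 6 fell, where 38.8% and 30.9% of all genes did, with a median of 1.06 against 0.20. With trends removed the medians were 0.1 in S434A and 0.37 in WT cells, against -0.01 and 0.06 over all genes. In WT cells the acetyltransferases EP300 (2.43 ± 0.082) and CREBBP (2.28 ± 0.13), which acetylate p53, rose, and RPL11 (-1.25 ± 0.071) and RPL5 (-1.24 ± 0.075), ribosomal proteins that bind MDM2, fell. With trends removed 9 of the 21 rose and 2 fell in S434A cells, where 20.8% and 23.4% of all genes did. In WT cells 10 rose and 7 fell, where 38.4% and 34.9% of all genes did. The 4 genes named were called in the same direction in WT cells in that fit. Without H89 7 were higher and 7 lower in S434A than in WT cells, and 7 and 5 with trends removed.

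Of 40 other p53 targets 39 were tested. With H89, 9 rose and 9 fell in S434A cells, where 29.3% and 22.7% of all genes did. Their median log2 fold change was -0.06, against 0.01 over all genes. In WT cells 16 rose and 12 fell, where 38.8% and 30.9% of all genes did, with a median of 0.06 against 0.20. Of those that fell in WT cells, the ones with the smallest p were BID (-1.97 ± 0.091), the decoy receptor TNFRSF10D (-0.91 ± 0.056), TM7SF3 (-0.65 ± 0.058) and RPS27L (-2.27 ± 0.18). Without H89 12 were higher and 14 lower in S434A than in WT cells. With trends removed 15 were higher and 8 lower in that comparison, where 29.7% and 28.8% of all genes were. In that fit 7 rose and 11 fell with H89 in S434A cells, where 20.8% and 23.4% of all genes did. In WT cells 20 rose and 11 fell, where 38.4% and 34.9% of all genes did. Of 22 other inhibitors and partners of cyclin-dependent kinases 21 were tested. With H89, 7 rose and 6 fell in S434A cells, where 29.3% and 22.7% of all genes did, with a median of -0.02 against 0.01. In WT cells 9 rose and 9 fell, where 38.8% and 30.9% of all genes did, with a median of -0.23 against 0.20. CCNE1, cyclin E1 (-1.46 ± 0.057), CDK4 (-1.28 ± 0.066), the inhibitor CDKN2C (-0.99 ± 0.062) and the phosphatase CDKN3 (-1.89 ± 0.21) had the smallest p in WT cells and fell. Without H89 4 were higher and 8 lower in S434A cells. With trends removed these counts were 6 and 8, where the shares of all genes were 29.7% and 28.8%. In that fit 5 rose and 4 fell with H89 in S434A cells, where 20.8% and 23.4% of all genes did. In WT cells 8 rose and 9 fell, where 38.4% and 34.9% of all genes did.

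Of the 18 genes known to be repressed through p53, p21 and DREAM, all were tested. With H89, 1 rose and 10 fell in S434A cells, where 29.3% and 22.7% of all genes did. In WT cells 4 rose and 8 fell, where 38.8% and 30.9% of all genes did. BIRC5, survivin (-0.84 ± 0.07 in S434A and -1.26 ± 0.07 in WT cells), the phosphatase CDC25A (-0.79 ± 0.085 and -0.996 ± 0.085 in the same order) and RRM2 (-0.72 ± 0.061 and -0.70 ± 0.061) fell in both genotypes, and FOXM1 rose in WT cells (1.11 ± 0.13). With trends removed 1 rose and 12 fell in S434A cells, where 20.8% and 23.4% of all genes did. In WT cells 7 rose and 7 fell in that fit, where 38.4% and 34.9% of all genes did. Without H89, 7 were higher and 7 lower in S434A than in WT cells, and 6 and 3 with trends removed. Their median log2 fold change with H89 was -0.32 in S434A cells, where the median of all genes was 0.01, and -0.14 in WT cells, where it was 0.20. With trends removed the medians were -0.28 in S434A cells and 0.11 in WT cells, where those of all genes were -0.01 and 0.06.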

How the data were processed

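The authors deposited whole-number counts of read pairs per gene, made with featureCounts 2.0.1 over exons of an hg19 annotation, per the file headers, which set no option for strand. Alignment with Bowtie 0.12.2 is given per the submitters' processing notes. The sources used here do not state trimming, kit or sequencing batch.

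Counts were used as deposited. All 12 libraries entered 1 edgeR 4.0.16 fit (R 4.3.3; TMM factors, filterByExpr with a minimum count of 10, robust quasi-likelihood F tests, 1 mean per group, no block), with Benjamini-Hochberg adjustment over 14435 genes. The SE is the size of the log2 fold change divided by the square root of F. The 29 genes, the other lists, the tests and the alternatives were chosen with earlier results of these data known. Values in every library are given for CDKN1A, CDKN1B, MDM2 and GDF15, for the 3 genes with the smallest p in each direction in each comparison of 2 groups, and for CCNG1 and RRM2B, which were added after their values were seen; of other lists, up to 4 genes with the smallest p are named per comparison, and 1 gene of these lists is not reported here. As alternatives, factors came from RLE or the upper quartile, and tests from DESeq2 1.42.0 or limma 3.58.1 (voom, also with a weight for each group's quality); further ones were other filters, only the groups compared, the replicate block, each library left out, and offsets that remove each library's trend on summed exon length and GC content (splines with 5 degrees of freedom each and their product). GC content of the longest GENCODE transcript was found for 14279 of the 14435 genes by identifier. The edgeR fit was tested on simulated data for H89 in WT cells only, with the same spread per gene in all groups. The other comparisons, the removal of trends and unequal spreads were not tested in that way. Promoters came from RefSeq, and the search for the p53 consensus was added after the other motifs were counted. Depth sets the precision of low genes such as TIGAR.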

Additional observations from a re-analysis of the deposited data

Results flagged for a closer look

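Of the 29 genes, 10 had an effect of H89 that differed between S434A and WT cells by the interaction term of the edgeR fit (adjusted p under 0.05 over all genes). It was more positive in S434A cells for 24.1% of the 29 and more negative for 10.3%, where 24.0% of all genes were called in each direction. The log2 difference, effect in S434A minus effect in WT, was 1.81 for TRIAP1, 1.27 for TP53I3, 1.20 for CCNG1, 0.83 for FBXO22, 0.44 for DDB2, 0.37 for PHLDA3 and 0.37 for FDXR. It was -0.52 for PLK3, -0.46 for TNFRSF10B and -0.39 for XPC. For TRIAP1, TP53I3, FBXO22, DDB2, PHLDA3 and FDXR the fall with H89 in WT cells was the larger one and WT cells without H89 were the highest group; that group also had the lowest mitochondrial and highest ribosomal protein share of counts, whose part in this was not tested. With trends on length and GC content removed, TRIAP1, TP53I3, DDB2, PHLDA3, FDXR and TNFRSF10B were still called, and CCNG1, FBXO22, PLK3 and XPC were not. The difference for PHLDA3 was not called without replicate 3 of WT without H89 (0.36, adjusted p = 0.0584). Leaving out 1 library in turn also ended it for CCNG1 in 10 of 12 cases (adjusted p up to 0.0962), for PLK3 in 9 (up to 0.102) and for XPC in 11 (up to 0.124).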

How the results depend on the processing

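Over 24 alternatives, 3061 of 3451 recomputed fold changes of the 29 genes kept their side of the threshold. A further 249 lost and 121 gained a call in the same direction, and 20 changed direction with a call in either fit. The 3061 include changes of direction where neither fit called the gene. An example is CDKN1A in S434A against WT without H89 (0.131 with only the groups compared). The turns named below are those with a call. With trends on length and GC content removed, values that turned were FBXO22 in S434A against WT without H89 (0.025) and in the difference of H89 effects (-0.10), GADD45A (0.40) and BBC3 (-0.40) for H89 in WT cells, BAX for H89 in S434A cells (0.068) and BBC3 in the difference (0.53). The same with the replicate block gave 0.41 for GADD45A, -0.40 and 0.53 for BBC3, and 0.068 for BAX. With trends removed and without replicate 1 of S434A without H89, ZMAT3 (0.24) and PPM1D (0.29) turned in S434A against WT without H89, GADD45A (0.38) and BBC3 (-0.39) for H89 in WT cells, SESN1 (-0.003), ZMAT3 (-0.039) and BAX (0.07) for H89 in S434A cells, and PPM1D (-0.34) and BBC3 (0.46) in the difference. CCNG1 turned for H89 in WT cells when only the groups compared were fitted (-0.14). The cause was not tested.

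Counts of the 29 genes moved by over 1.5 times in these settings. Fitting only the groups compared gave 4 higher and 4 lower for S434A against WT without H89 (32.3% and 17.8% of all genes). It gave 1 higher and 7 lower for H89 in S434A cells (8.49% and 11.4% of all genes). No filter gave 3 higher for H89 in S434A cells (8.04% of all) and 1 lower for the difference (9.83%). Voom with group weights, and removal of trends with the replicate block, each gave 7 lower for H89 in S434A cells (13.8% and 22.9% of all genes). Removal of trends without replicate 1 of S434A without H89 gave 6 higher for S434A against WT without H89 (31.3% of all genes). It gave 7 higher for H89 in S434A cells (21.9%) and 6 lower for the difference (28%). For S434A against WT with H89 it gave 1 higher and 1 lower (0.0828% and 0.234% of all genes). Leaving out 1 library at a time, 2 to 4 were higher and 10 to 15 lower for S434A against WT without H89. The shares of all genes were 24.5 to 32.2% and 25.6 to 33.5%. For H89 in S434A cells the counts were 4 to 11 and 11 to 15 (14.8 to 33.9% and 19.7 to 32% of all genes). For H89 in WT cells they were 5 to 10 and 11 to 14 (29.1 to 45% and 28.7 to 34.6%). The difference gave 5 to 10 and 1 to 4 (21.2 to 29% and 20.2 to 28%), and S434A against WT with H89 gave 0 and 0. Among all genes, the median log2 fold change for H89 in WT cells was 0.197 with TMM and 0.048 with RLE factors. For H89 in S434A cells RLE factors called 24.7% of genes higher and 29.6% lower, where TMM called 29.3% and 22.7%, and the 29 genes gave 8 higher and 13 lower. In S434A against WT without H89 the fit of only those groups had a median of 0.146 over all genes.

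With the replicate number as a block, 3 were higher and 13 lower for S434A against WT without H89 (28.6% and 29.7% of all genes). For H89 the counts were 10 and 11 in S434A cells (30.2% and 22.3%) and 9 and 12 in WT cells (38.7% and 30.8%). S434A against WT with H89 gave 0 and 0, and the difference 7 and 2 (24.2% and 23.6% of all genes). Deviations of same-numbered libraries correlated between -0.242 and 0.395, so the numbers were not taken to pair the samples. With 3 libraries per group, small changes may be missed.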
